A study of Sus scrofa with 16 samples.

Results

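*AREG*, *MET*, *PLAU* and *MMP1*, a growth factor, a growth factor receptor and 2 secreted proteases of wound repair, are 4 of the 3875 genes counted in cultured satellite cells (SCs), the stem cells of skeletal muscle, from a pig model of Duchenne muscular dystrophy. They were chosen from results of these data, by their levels in the 4 groups of the study, so that their values are given as a description and carry no test. The study asked which changes dystrophin deficiency brings to SCs before they contract. DMD piglets carry a deletion of exon 52 of *DMD*, the gene of dystrophin, and wild-type (WT) piglets of the same age were the controls. SCs came from male piglets aged 3 days and were enriched by magnetic sorting, with depletion of CD31 and CD45 positive cells, and used at passage 6. PROL cells were growing in medium with 20% fetal bovine serum and basic fibroblast growth factor, and DIFF cells had been moved to 5% horse serum, for 10 days in the sequencing methods and 7 days in the culture methods. Each of 4 DMD and 4 WT animals gave 1 DIFF and 1 PROL sample, so that the groups were DMD DIFF, DMD PROL, WT DIFF and WT PROL with n = 4 each.

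Amphiregulin, the product of *AREG*, is a ligand of the epidermal growth factor (EGF) receptor that is made as a membrane-bound precursor and released by the sheddase ADAM17. *MET* encodes the receptor of hepatocyte growth factor, which brings quiescent SCs into the cell cycle after muscle injury. *PLAU* encodes urokinase, which turns plasminogen into plasmin and can also activate the precursor of hepatocyte growth factor, and *MMP1* encodes a collagenase that cuts fibrillar collagens such as type I. In wounds, growth factor signals of this kind and matrix proteolysis act side by side while cells divide and migrate.

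Samples held 1110050 to 1781174 counts of 3′ tags, and levels are given in CPM (counts scaled to 1e6 per library) after scaling with TMM (trimmed mean of M values). The 18S ribosomal RNA gene took 6.32 to 20.4% of counts, the highest share being that of DMD PROL replicate 4. The *DMD* transcript was counted 30 to 48 times per sample in DMD DIFF and 24 to 32 in DMD PROL. It was counted 12 to 22 times in WT DIFF and 6 times in each WT PROL sample, and 3′ tags do not check the deletion. In the study's Western blots of proliferating cells, dystrophin protein was found in WT SCs and was absent from DMD SCs. Summed levels of the 6 counted myogenic markers ran from 13149.7 to 14681 CPM in DMD DIFF, 3881 to 6174 in DMD PROL, 1938 to 3295 in WT DIFF and 194 to 263 in WT PROL. These sums were nearly all *MYLPF*, *ACTA1* and *DES*, with means of 7884, 3606 and 2055 CPM in DMD DIFF. *MYOD1*, on few counts, had 2.46 ± 3.09 CPM in DMD DIFF and 8.10 ± 3.81 in DMD PROL, against the direction of the sum. *MYF5*, a regulator of committed SCs, had no count in any WT sample, which allows up to 3 counts per library if counts are independent. Every deposited count was even, so that this limit can be too low. *PAX7* is not analysed here. Summed levels of 5 fibroblast markers were 9473 to 12697 CPM in DMD DIFF, 4139 to 4573 in DMD PROL, 21278 to 24338 in WT DIFF and 8238 to 9997 in WT PROL, and 4 of the 5 were called lower in DMD than in WT SCs in both states. Endothelial markers (4 counted) summed to 27.4 to 49.0 CPM in DMD DIFF, 13.5 to 28.9 in DMD PROL, 60.5 to 114 in WT DIFF and 107 to 134 in WT PROL, and blood markers (3 counted, with *CD3E* at 0) to 18.2 to 69.5 CPM over all samples. Smooth muscle and pericyte markers (4 counted) summed to 15806 to 20384 CPM in DMD DIFF and to 1512 to 3471 CPM in the other groups. The DMD DIFF sum was mainly *ACTA2* (11648 ± 878 CPM) and *TAGLN* (6513 ± 1069.8). Of the same list, *RGS5* was highest in WT PROL, at 105 ± 79.8 CPM. It had 4.29 ± 4.55 CPM in DMD DIFF, 4.91 ± 3.71 in DMD PROL and 5.81 ± 3.30 in WT DIFF. The marker sums moved with genotype and state, and their part in the levels of the 4 genes was not tested. In bulk samples, fewer cells of a type and less RNA per cell cannot be told apart.

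**Figure D1:**
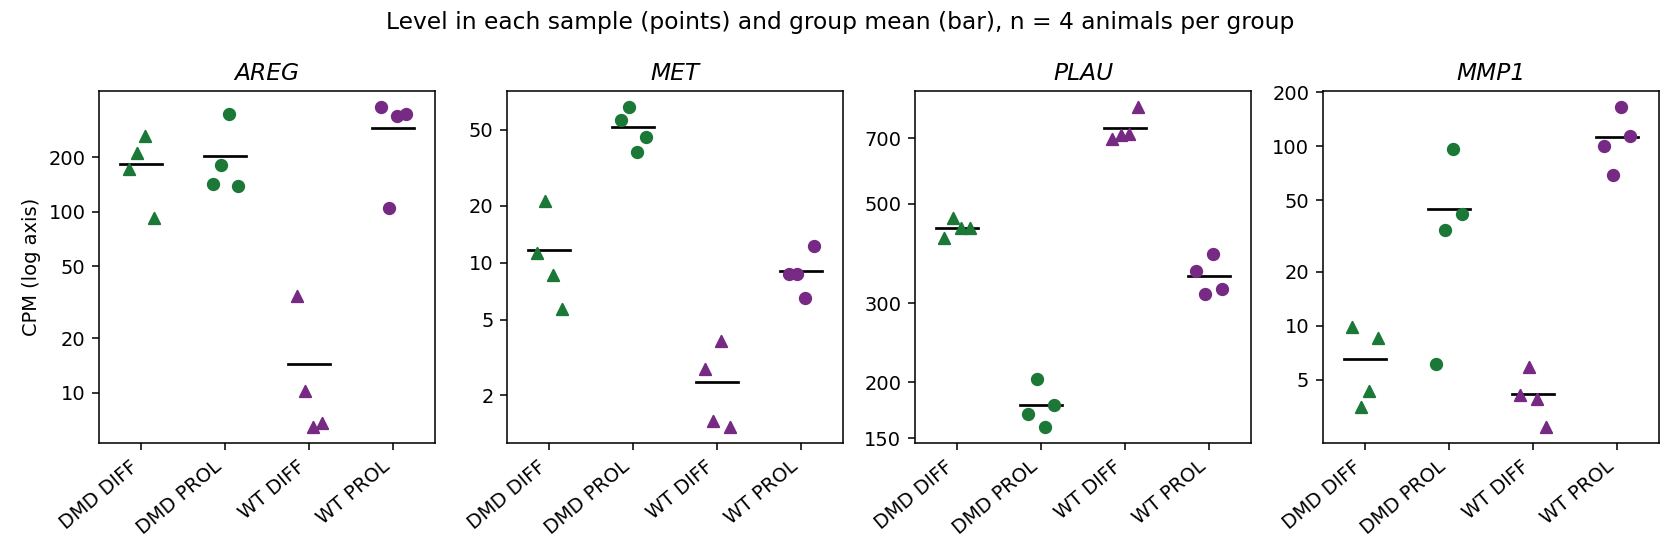
Level of *AREG*, *MET*, *PLAU* and *MMP1* in CPM (log axis, own range per gene) in each of 16 samples, with a point per animal, triangles for DIFF, circles for PROL, and a bar at the mean of 4 animals. *AREG* was low in WT DIFF alone, *MET* high in DMD PROL, the 4 groups of *PLAU* stood apart from each other, and *MMP1* was low in both DIFF groups.

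*AREG* was low in a single group, WT DIFF. It stood at 172, 212, 263 and 92.5 CPM in replicates 1 to 4 of DMD DIFF and at 143, 181, 348 and 139 CPM in DMD PROL. In WT SCs it had 34.4, 10.3, 6.47 and 6.81 CPM in DIFF and 378, 105, 339 and 346 CPM in PROL. Thus every WT DIFF sample was below every other sample, and the other groups overlapped with their neighbours in level. The means were 185 ± 72.1 CPM in DMD DIFF, 203 ± 98.7 in DMD PROL, 14.5 ± 13.4 in WT DIFF and 292 ± 126 in WT PROL (SD, n = 4 each).

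Between genotypes, the *AREG* level of DIFF cells was 12.7-fold higher in DMD than in WT SCs, or 3.66 on the log2 scale (SE 0.57). WT DIFF replicate 1 held 59.5% of the counts of its group, and leaving it out gave 4.55. In PROL the log2 fold change between DMD and WT was -0.53 (SE 0.48), with overlapping groups. Within genotypes, DIFF stood 20.3-fold below PROL in WT SCs, at -4.34 on the log2 scale (SE 0.66, and -5.24 without WT DIFF replicate 1). In DMD SCs the fold change was -0.14 (SE 0.43) on the log2 scale, and 0.26 without DMD PROL replicate 3.

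The same 16 samples were also taken animal by animal. From PROL to DIFF the log2 change of *AREG* was 0.27, 0.23, -0.40 and -0.59 in the DMD animals, 2 up and 2 down. It was -3.46, -3.36, -5.71 and -5.67 in the WT animals. The genotypes did not overlap, but *AREG* was chosen by these levels, and the share of all genes without such overlap was not computed. The difference between the state changes of DMD and WT SCs (the interaction) was 4.20 on the log2 scale (SE 0.80), and 5.08 without WT DIFF replicate 1. *AREG* counts of a library ran from 130 to 366 in DMD DIFF and from 10 to 50 in WT DIFF, so that the WT DIFF level rests on 84 counts in all.

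**Figure D2:**
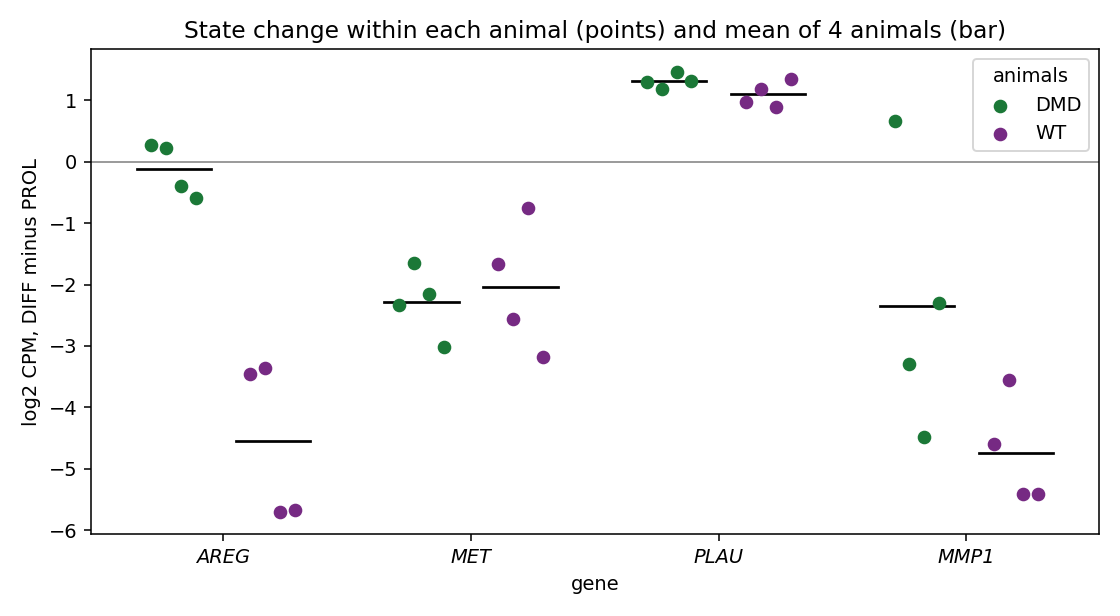
Change of log2 CPM between states, DIFF minus PROL, in each of 4 DMD and 4 WT animals, with a bar at the mean of 4. *AREG* changed by -0.59 to 0.27 in DMD and by -5.71 to -3.36 in WT animals, and the ranges of *MET*, *PLAU* and *MMP1* overlapped between genotypes. The share of all genes without such overlap was not computed.

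*MET* was highest in growing DMD cells. Its level was 11.2, 21.0, 8.64 and 5.69 CPM in DMD DIFF and 56.6, 65.7, 38.4 and 45.9 CPM in DMD PROL. WT SCs had 2.75, 1.47, 3.88 and 1.36 CPM in DIFF and 8.73, 8.69, 6.52 and 12.3 CPM in PROL. All 4 DMD PROL samples were above all others, all 4 WT DIFF samples were below all others, and DMD DIFF and WT PROL overlapped. The means were 11.6 ± 6.63 CPM in DMD DIFF, 51.7 ± 12.0 in DMD PROL, 2.37 ± 1.19 in WT DIFF and 9.06 ± 2.40 in WT PROL (SD, n = 4 each).

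In PROL, *MET* was 5.71-fold higher in DMD than in WT SCs, with a log2 fold change of 2.51 (SE 0.27). In DIFF it stayed under the filter on low counts and was not fitted, with 72 counts in DMD and 14 in WT SCs. It was fitted in 7 alternatives, which used no filter, took all 16 samples in one fit or left out 1 sample. Its log2 fold change was 2.09 to 2.60 there, called higher in each. Nothing is read from these calls, since *MET* was chosen from these contrasts and WT DIFF libraries held 2 to 6 counts. The ratio of its pooled CPM in DIFF was 5.05, with a 95% interval of 2.82 to 9.69 for counting error alone. The groups did not overlap, as for 45.3% of all genes tested. All deposited counts were even, and with each count halved the same interval was 2.21 to 13.4.

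From PROL to DIFF the *MET* level was lower in 8 of 8 animals. The log2 fold change was -2.12 (SE 0.33) in DMD and -1.89 (SE 0.51) in WT SCs. The animals changed by -3.01 to -1.65 in DMD and by -3.18 to -0.75 in WT. The interaction was -0.25 (SE 0.69) on the log2 scale, less than its error, and its sign turned to 0.02 with scaling by library size alone and to 0.09 without WT DIFF replicate 3. The WT values rest on few counts, since no WT library held more than 16.

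*PLAU* differed by genotype and by state with little spread between animals. Its level was 419, 464, 441 and 441 CPM in DMD DIFF and 169.8, 204, 159 and 178 CPM in DMD PROL. WT SCs had 696, 711, 716 and 819 CPM in DIFF and 354, 314, 386 and 323 CPM in PROL. The order of the groups was WT DIFF, DMD DIFF, WT PROL and DMD PROL, and no neighbours in this order overlapped. The means were 441 ± 18.5 CPM in DMD DIFF, 178 ± 18.8 in DMD PROL, 736 ± 56.5 in WT DIFF and 344 ± 32.5 in WT PROL (SD, n = 4 each).

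The *PLAU* level was lower in DMD than in WT SCs in both states, by 1.95-fold in PROL (log2 fold change -0.96, SE 0.11) and by 1.68-fold in DIFF (-0.74, SE 0.09). It was higher in DIFF than in PROL in both genotypes, 2.46-fold in DMD (log2 fold change 1.30, SE 0.10) and 2.11-fold in WT SCs (1.08, SE 0.09). All 8 animals moved in this direction, by 1.19 to 1.47 in DMD and by 0.89 to 1.34 in WT on the log2 scale. The interaction was 0.22 (SE 0.13). *PLAU* was thus the gene whose genotype difference ran against that of *MET* in both states.

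*MMP1* was nearly silent in both DIFF groups and varied widely among growing DMD cells. It had 9.80, 3.50, 4.32 and 8.54 CPM in DMD DIFF and 6.15, 34.1, 96.6 and 42.0 CPM in DMD PROL. In WT SCs the level was 4.13, 5.89, 3.88 and 2.72 CPM in DIFF and 100.4, 69.5, 165 and 115 CPM in PROL. DMD PROL replicate 1 lay within the range of DMD DIFF, and replicate 3 within the range of WT PROL. The means were 6.54 ± 3.10 CPM in DMD DIFF, 44.7 ± 37.9 in DMD PROL, 4.16 ± 1.31 in WT DIFF and 113 ± 39.9 in WT PROL (SD, n = 4 each).

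In WT SCs, *MMP1* stood 27.1-fold lower in DIFF than in PROL, with a log2 fold change of -4.76 (SE 0.32), and changed by -5.41 to -3.56 per animal. In DMD SCs the log2 fold change was -2.79 (SE 0.80), and the animals changed by 0.67, -3.29, -4.48 and -2.30. DMD PROL replicate 3 held 56.5% of the counts of its group, and without it the value was -2.07. Between genotypes in PROL the log2 fold change was -1.34 (SE 0.66) and not called. It was -2.05 without this sample, and that was the only call in 19 settings. In DIFF *MMP1* was not fitted, with 38 counts in DMD and 24 in WT SCs and a ratio of pooled CPM of 1.55 (95% interval 0.908 to 2.71, counting error alone). The interaction was 1.96 (SE 1.02) and not called. It was 2.68 without DMD PROL replicate 3, the only call in 26 settings. Nothing is read from calls that appear when 1 sample is left out.

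Genes were called at a Benjamini-Hochberg adjusted *p* under 0.05 in edgeR with an absolute log2 fold change over 0.6. Since these contrasts chose the 4 genes, their calls are set beside the share of all tested genes and nothing is read from them. In DMD against WT in PROL 1 of the 4 was called higher (*MET*) and 1 lower (*PLAU*), against 8.36% higher and 9.87% lower of all 1914 genes tested. In DIFF 1 of the 2 tested was called higher (*AREG*) and 1 lower (*PLAU*), against 16.1% and 17.5% of 1916. From PROL to DIFF in DMD SCs 1 was called higher (*PLAU*) and 2 lower (*MET* and *MMP1*), against 16.0% and 12.4% of 1886. The *MMP1* call was lost without the filter on low counts and without DMD DIFF replicate 2, 3 or 4, where the log2 fold change was -2.94 to -2.55. In WT SCs 1 was called higher (*PLAU*) and 3 lower, against 17.9% and 14.3% of 1921. In the interaction 1 was called higher (*AREG*), against 10.6% higher and 12.9% lower of 2030 genes. The groups did not overlap for *MET* and *PLAU* in PROL (30% of all genes tested), for *AREG* and *PLAU* in DIFF (45.3%), for *MET* and *PLAU* between the states of DMD SCs (40.6%) and for all 4 between the states of WT SCs (43.2%). Comparisons with a group in common share its samples and are not independent.

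For *PLAU* the SD of a single duplicate was 0.20 on the log2 scale (16 samples), and the SD between animals of a group was 0.12. For *AREG* the SDs were 0.27 between duplicates (12 samples with at least 20 counts in each) and 0.84 between animals. They were 0.46 (6 samples) and 0.97 for *MMP1*, and 0.43 (4 samples) and 0.59 for *MET*. The SD between animals was computed over all 16 samples, also those with fewer counts, so that for genes other than *PLAU* the SDs rest on different samples. For all 4 genes, the SD of duplicates is that of a single duplicate without TMM scaling. The SD between animals is that of both duplicates added, with TMM scaling, so that the SDs are unlike measures.

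The genes around the 4 were taken as 6 lists of 119 genes, of which 35 were counted. The receptor of amphiregulin (*EGFR*), the ligand of MET (*HGF*) and the urokinase receptor (*PLAUR*) are not analysed here. Over the 6 lists, 5 of 20 tested genes were called higher and 4 lower in DMD than in WT SCs in PROL (8.36% and 9.87% of all genes tested), and 6 and 5 of 21 in DIFF (16.1% and 17.5%). From PROL to DIFF 6 of 21 were higher and 5 lower in DMD SCs (16.0% and 12.4% of all genes tested), and 2 and 5 in WT SCs (17.9% and 14.3%). The median log2 fold changes of the lists were 0.11 in PROL, 0.33 in DIFF, 0.00 between the DMD states and -0.13 between the WT states, beside 0.00, -0.03, 0.01 and 0.03 for all genes tested.

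Of the 19 genes listed for the EGF family beside *AREG*, 5 were counted, and the others are not analysed here. *EGF* and *TGFA* had no count in any sample, which allows up to 3 counts per library if counts are independent. Since all deposited counts were even, this limit can be too low. *HBEGF*, another ligand of the EGF receptor, had 34 counts over DMD DIFF, 22 over DMD PROL, 8 over WT DIFF and 6 over WT PROL, too few to be tested. The sheddases *ADAM10* and *ADAM17* were expressed, with group means of 38.6 to 51.3 and 15.1 to 20.7 CPM. They were not called in any of the 5 comparisons by edgeR or by DESeq2, and 0 of the 2 had an unadjusted *p* under 0.05. *GRB2*, an adaptor that binds active MET, was the tested gene of the MET list and was not called either, with an unadjusted *p* under 0.05 in DIFF between genotypes only.

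Among the genes of plasminogen activation, *PLAT*, which encodes tissue-type plasminogen activator, moved in opposite directions in the genotypes. Its level was 154 ± 25.4 CPM in DMD DIFF, 62.2 ± 21.2 in DMD PROL, 55.1 ± 16.9 in WT DIFF and 149 ± 88.0 in WT PROL. From PROL to DIFF it rose in DMD SCs by 1.29 on the log2 scale (SE 0.21, edgeR adjusted *p* = 1.9e-04) and fell in WT SCs (-1.45, SE 0.45, adjusted *p* = 0.0307). The WT call was lost with no filter on low counts and without WT PROL replicate 1 or WT DIFF replicate 1, 2 or 4, where its value was -1.46 to -1.36 and its adjusted *p* reached 0.0930, against 1.2e-05 to 0.0930 over all alternatives in edgeR and DESeq2. The interaction was 2.74 (SE 0.54, edgeR adjusted *p* = 0.00139). *PLAT* was higher in DMD than in WT SCs in DIFF, by 1.47 on the log2 scale (SE 0.19, edgeR adjusted *p* = 1.0e-05), so that the plasminogen activators *PLAT* and *PLAU* stood on opposite sides there. In PROL it had -1.27 (SE 0.47, edgeR adjusted *p* = 0.0878), which became a call in 5 of 18 alternatives. These were replicate as a block (-1.16), DESeq2 (-1.26), all 16 samples in one fit (-1.26), the first technical column alone (-1.47) and leaving out WT PROL replicate 2 (-1.51), and over all alternatives in edgeR and DESeq2 the adjusted *p* was 0.0102 to 0.193.

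*PN-1* (*SERPINE2*), which encodes protease nexin-1, an inhibitor of urokinase, was lower in DMD than in WT SCs in PROL (1620.4 ± 226 against 3060.1 ± 1009 CPM), at -0.93 on the log2 scale (SE 0.22, edgeR adjusted *p* = 0.0167). It rose from PROL to DIFF in DMD SCs by 1.34 on that scale (SE 0.17, edgeR adjusted *p* = 1.3e-04), and its interaction was 1.37 (SE 0.31, adjusted *p* = 0.00430). *S100A10*, a partner of annexin A2 that binds plasminogen at the cell surface, was lower in DMD DIFF than in WT DIFF at 159 ± 22.8 against 414 ± 50.4 CPM (log2 fold change -1.38, SE 0.12, edgeR adjusted *p* = 1.1e-07). *C1H9orf46* (*PLGRKT*), which encodes a plasminogen receptor, was higher in DMD SCs in both states, by 1.11 in PROL and 1.13 in DIFF on the log2 scale (SE 0.13 and 0.15, edgeR adjusted *p* = 1.5e-05 and 9.4e-06). Plasminogen itself (*PLG*) had 4 counts in all.

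The collagenase *MMP1* lies in a cluster of metalloproteinase genes, between *MMP8* and *MMP3* in RefSeq's annotation of Sscrofa11.1. The counted genes of this cluster, *MMP3*, *MMP7* and *MMP12*, had 2, 4 and 4 counts over all 16 samples, and *MMP9* and *MMP25* 4 each. *MMP2*, a gelatinase, was counted well and was lower in DMD than in WT SCs in both states. It had 72.4 ± 14.8 against 277 ± 27.7 CPM in DIFF (log2 fold change -1.95, SE 0.14, edgeR adjusted *p* = 1.4e-08) and 48.5 ± 9.24 against 153 ± 33.4 CPM in PROL (-1.67, SE 0.19, adjusted *p* = 7.5e-06). *MMP14*, a membrane-bound activator of MMP2, was lower in DMD SCs in DIFF (log2 fold change -1.31, SE 0.40, edgeR adjusted *p* = 0.0123). The summed fibroblast markers were lower in DMD SCs in both states too, and the part of this in the *MMP2* values was not tested.

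The tissue inhibitors of metalloproteinases differed from each other. *TIMP1* was lower in DMD than in WT SCs in PROL (log2 fold change -0.90, SE 0.18, edgeR adjusted *p* = 0.00516) and rose from PROL to DIFF in DMD SCs by 1.04 (SE 0.15, adjusted *p* = 2.1e-04). *TIMP2* was higher in DMD SCs in PROL (0.76, SE 0.16, edgeR adjusted *p* = 0.00557) and lower in DIFF (-0.72, SE 0.14, adjusted *p* = 5.6e-04). Both values lie near the fold change threshold. The DIFF call was lost without WT DIFF replicate 4 (-0.56), with library size alone (-0.59) and from the first technical column (-0.59), and the PROL call with library size alone (0.60). *TIMP2* had 529 ± 89.8 CPM in DMD DIFF, 1062 ± 199 in DMD PROL, 866 ± 165 in WT DIFF and 624 ± 131 in WT PROL, an interaction of -1.48 (SE 0.24, edgeR adjusted *p* = 2.1e-04).

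**Figure D3:**
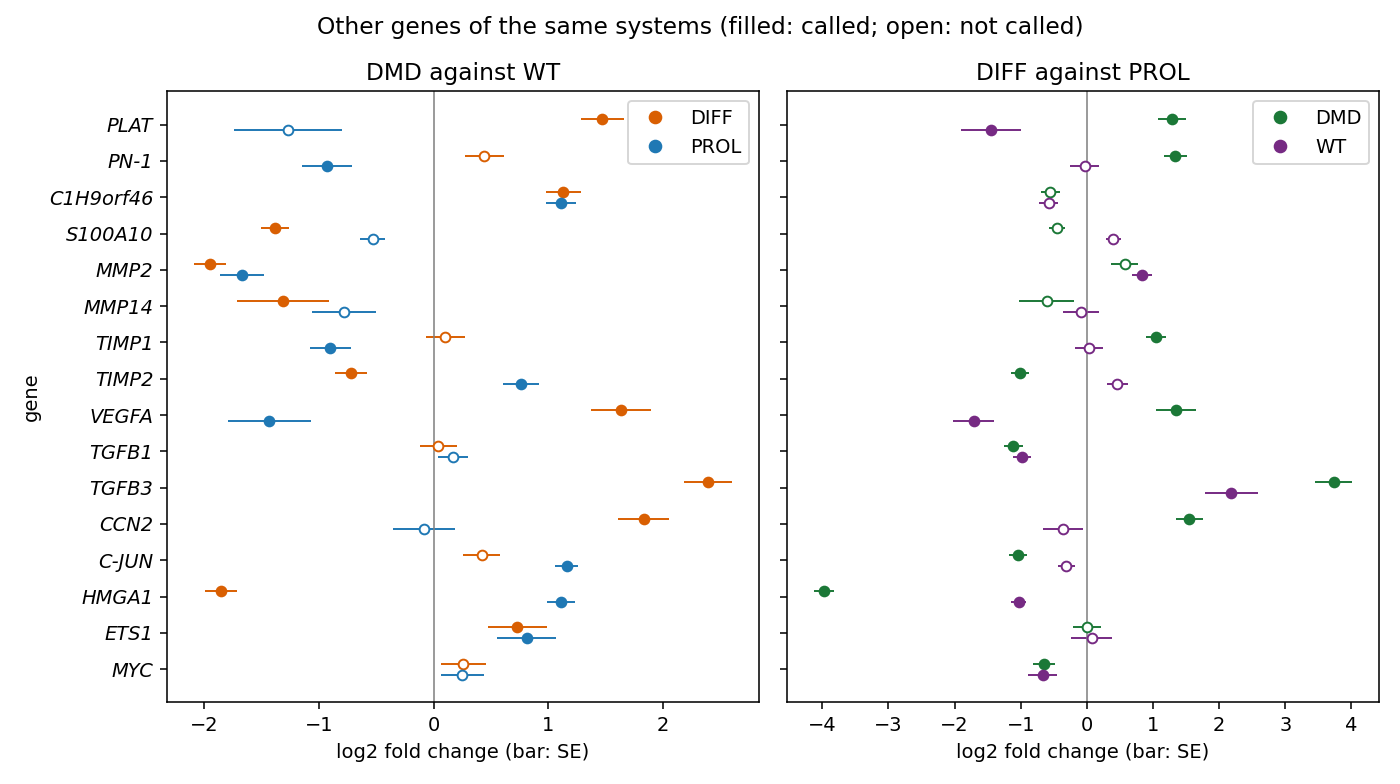
Log2 fold change with its SE (bar) of 16 other genes of the 6 lists, for DMD against WT in each state (left) and for DIFF against PROL in each genotype (right), with filled points for called genes. *PLAT* and *VEGFA* lie on opposite sides of 0 in DMD and WT in the right panel.

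Of the other wound growth factors, *VEGFA*, the main inducer of blood vessel growth, had the state pattern of *PLAT*. Its level was 52.4 ± 12.6 CPM in DMD DIFF, 20.4 ± 8.55 in DMD PROL, 16.8 ± 3.94 in WT DIFF and 54.6 ± 22.7 in WT PROL. It was higher in DMD than in WT SCs in DIFF (log2 fold change 1.63, SE 0.26, edgeR adjusted *p* = 7.6e-05) and lower in PROL (-1.43, SE 0.36, adjusted *p* = 0.0101). The interaction was 3.06 (SE 0.46, edgeR adjusted *p* = 2.9e-05). *TGFB3*, which encodes a transforming growth factor, reached 96.1 ± 7.49 CPM in DMD DIFF, 7.09 ± 4.01 in DMD PROL, 18.0 ± 5.46 in WT DIFF and 3.82 ± 0.993 in WT PROL. It was higher in DMD DIFF than in WT DIFF by 2.39 on the log2 scale (SE 0.21, edgeR adjusted *p* = 1.2e-07). *CCN2*, a matrix-associated growth factor, was higher by 1.83 there (SE 0.22, edgeR adjusted *p* = 3.7e-06). *TGFB1* fell from PROL to DIFF, with log2 fold changes of -1.11 in DMD and -0.98 in WT SCs (edgeR adjusted *p* = 1.1e-05 and 2.4e-05).

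The list of genes that respond to ERK and AP-1, which lie downstream of both receptors, held 4 tested genes. *C-JUN* (*JUN*), a subunit of AP-1, was higher in DMD than in WT SCs in PROL at 569 ± 58.7 against 253 ± 10.1 CPM (log2 fold change 1.16, SE 0.10, edgeR adjusted *p* = 2.8e-07). *HMGA1*, which encodes a chromatin protein of dividing cells, was higher in DMD SCs in PROL (1.11, SE 0.12, edgeR adjusted *p* = 8.0e-06) and lower in DIFF (-1.85, SE 0.14, adjusted *p* = 1.8e-08). *ETS1* was called higher in DMD SCs in both states, at 0.81 in PROL and 0.73 in DIFF on the log2 scale (edgeR adjusted *p* = 0.0286 and 0.0259). Over the alternatives its adjusted *p* reached 0.297 in PROL and 0.122 in DIFF, and its values were 0.68 to 0.81 and 0.59 to 0.72 without the samples that ended the call. These were WT PROL replicates 2, 3 and 4 and DMD PROL replicates 1, 2 and 3, and in DIFF WT replicates 1 and 3 and DMD replicate 3. The PROL call was also lost with library size alone (0.67) and from the first technical column (0.53), and the DIFF call from either column alone (0.87 and 0.68). *MYC* fell from PROL to DIFF, with log2 fold changes of -0.65 in DMD and -0.67 in WT SCs (edgeR adjusted *p* = 0.00673 and 0.0200). Its DMD value was -0.59 to -0.52 and no longer called without DMD PROL replicate 3 or DMD DIFF replicate 2 or 4 or from the first technical column, and its WT value was -0.59 without WT DIFF replicate 1 and -0.42 without WT PROL replicate 2, both not called.

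Genes with the most similar course over the 16 samples were looked for among 2029 tested genes, by the root-mean-square difference of log2 CPM centred per gene. This is a description over samples that share libraries and groups. For *AREG* these were *NLRP3*, a sensor of the inflammasome, at 1.02, *IL8* (*CXCL8*), a chemokine of neutrophils, at 1.10 and *PTGS2*, which encodes cyclooxygenase-2, at 1.14, where the median of all genes was 1.96. *NLRP3* had 12.9 ± 6.47 CPM in DMD DIFF, 13.8 ± 5.02 in DMD PROL, 0.664 ± 0.767 in WT DIFF and 13.8 ± 6.81 in WT PROL. *PTGS2* had 9.22 ± 5.18, 13.8 ± 5.23, 1.36 ± 1.95 and 109 ± 87.7 CPM in the same groups. These genes were thus lowest in WT DIFF, as *AREG* was, and their levels in the other groups varied.

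For *MET* the nearest genes were *RCAN1*, an inhibitor of calcineurin, at 0.62, *PERP*, a target of p53, at 0.65 and *STMN1*, a microtubule regulator of dividing cells, at 0.68 (median of all genes 1.52). *RCAN1* had 196 ± 44.5 CPM in DMD DIFF, 507 ± 94.4 in DMD PROL, 65.7 ± 17.9 in WT DIFF and 180.3 ± 47.5 in WT PROL. For *PLAU* they were *MAP1LC3A*, an autophagy gene, at 0.21, *JAK1*, a kinase of cytokine receptors, at 0.25 and a gene whose name had been turned into a date, at 0.27 (median 0.87). *JAK1* had 392 ± 41.9 CPM in DMD DIFF, 194 ± 36.1 in DMD PROL, 528 ± 39.7 in WT DIFF and 310.0 ± 8.30 in WT PROL. For *MMP1* they were *IL8* at 0.97, *SHAS2* at 1.07 and the mitotic kinase *AURKA* at 1.08 (median 1.97). *IL8*, near both *MMP1* and *AREG*, had 2.71 ± 1.16 CPM in DMD DIFF, 23.6 ± 13.5 in DMD PROL, 0.344 ± 0.688 in WT DIFF and 22.5 ± 14.6 in WT PROL. The 4 genes differed from each other by 1.46 (*AREG* and *MET*) to 2.46 (*AREG* and *PLAU*).

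**Figure D4:**
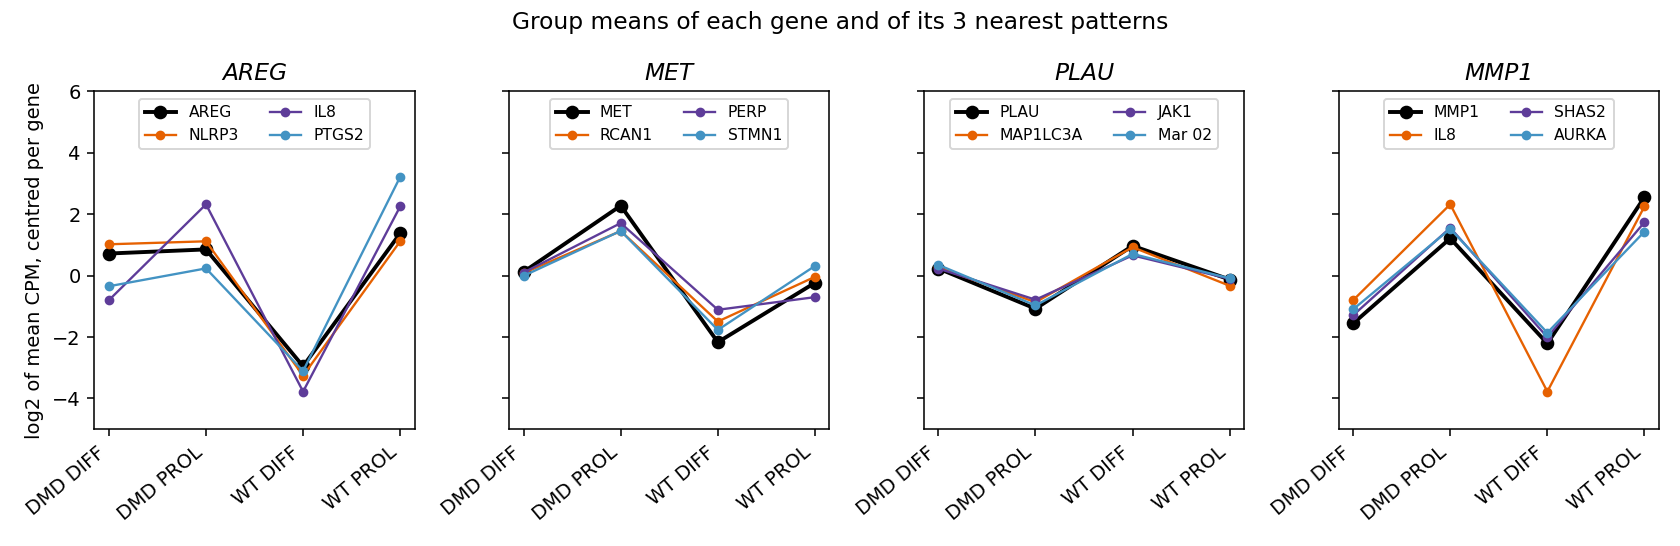
Log2 of group mean CPM, centred per gene, for *AREG*, *MET*, *PLAU* and *MMP1* (black) and the 3 genes nearest to each over 16 samples (colors), with the groups along the axis and the gene of a date-like name as the files give it. The lines of the *PLAU* panel run closest together (differences of 0.21 to 0.27), and those of *AREG* and *MMP1* are farther apart (0.97 to 1.14).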

How the data were processed

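Per the labels and the study's methods, 3′ libraries with molecular identifiers were made from 25 ng of RNA. The authors aligned reads with STAR 2.7.10b to susScr3, removed duplicates with UMI-tools and deposited a raw count per gene in 32 columns, 2 technical duplicates per sample. The annotation and the strand setting are not given in the sources used here, and every deposited count is even, with no reason given.

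Duplicates were added. In R 4.3.3, edgeR 4.0.16 was run with filterByExpr (minimum count 10, total 15), TMM scaling, estimateDisp, glmQLFit with robust estimation, then glmQLFTest. Each comparison used its 8 samples and the interaction all 16. The SE is the absolute log2 fold change divided by the square root of the F statistic. Intervals of pooled count ratios are exact binomial and cover counting error alone. Tested on simulated data, the PROL comparison recovered 76% of 100 changed genes at a log2 change of 1, and DIFF 85.7% of 98. The DMD states gave 74.5% of 98, the WT states 71% of 100 and the interaction 57% of 100. In all, 1854 to 1994 genes were simulated per comparison. These genes had passed the filter on low counts, and their counts were drawn independently for each sample. Cultures of different animals are the replicates. The main fits held no term for the animal, so the PROL and DIFF samples of an animal were treated as independent. *P*-values measure the spread between animals within groups. For the state comparisons and the interaction, this is not the spread of the change within an animal.

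The 4 genes and the 6 lists were chosen with earlier results of these data known. Named beside them were *HBEGF*, *PLAT*, *MMP2*, *MMP3*, *TIMP1* and *TIMP2*, up to 4 called genes per list and comparison with the smallest *p*, and the 3 nearest genes in course. *JUN*, *SERPINE2*, *PLGRKT* and *CTGF* were matched through RefSeq synonyms. Other genes named were chosen after their values were seen. The 2 states of an animal share its number, and after removal of group means both samples of an animal correlated by 0.0998 to 0.172, more than with the other animals of the genotype for 8 of 8. Alternatives were DESeq2 1.42.0, other scalings and filters, single technical columns, halved counts, a block, all samples in one fit, and leaving out each sample. The block was the replicate number between genotypes, and the animal between states and in the interaction.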

Additional observations from a re-analysis of the deposited data

Results flagged for a closer look

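In 3 of the 16 sets of 4 samples formed by the 4 genes and 4 groups, 1 sample lay far from the others by Dixon's criterion, which flags about 1 in 20 sets of independent values. The sets share 16 libraries and the genes were chosen by these levels, so the flags are a description. For *AREG* in WT DIFF this was replicate 1, at 34.4 CPM against 6.47 to 10.3 in the others. For *AREG* in WT PROL it was replicate 2, at 105 CPM against 339 to 378. For *PLAU* in WT DIFF it was replicate 4, at 819 CPM against 696 to 716. These belong to different animals.

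The state change differed between DMD and WT SCs for 10 of 21 tested genes of the lists, 6 higher and 4 lower, by the interaction in edgeR. Of all 2030 genes tested 10.6% were called higher and 12.9% lower. Its log2 value was 3.06 for *VEGFA* (adjusted *p* = 2.9e-05), 2.74 for *PLAT* (0.00139), 1.90 for *CCN2* (2.7e-04), 1.55 for *TGFB3* (0.0243), 1.37 for *PN-1* (0.00430) and 1.00 for *TIMP1* (0.0180), all in edgeR with adjusted *p* in brackets. It was -0.74 for *C-JUN* (0.00448), -0.86 for *S100A10* (2.7e-04), -1.48 for *TIMP2* (2.1e-04) and -2.96 for *HMGA1* (1.5e-09). The call of *TGFB3* was lost without WT PROL replicate 2 or 3, where the values were 1.41 and 1.48. It was also lost from the first technical column, where the value was 0.39 (over all alternatives in edgeR and DESeq2 the adjusted *p* was 0.00496 to 0.901). With library size alone the calls of *C-JUN* (-0.46) and *S100A10* (-0.57) were lost.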

How the results depend on the processing

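None of the values of *AREG*, *MET*, *PLAU* and *MMP1* that were called turned sign under an alternative. With library size alone in place of TMM, *PLAU* had -1.11 in PROL and -0.61 in DIFF between genotypes, 0.73 between the WT states and 0.50 in the interaction (all log2). This scaling moved the median of all genes by -0.14 in PROL, 0.14 in DIFF, -0.07 and -0.35 between the DMD and the WT states and 0.28 in the interaction. Calls were then 122 higher and 264 lower in PROL (160 and 189 with TMM), 387 and 267 in DIFF (308 and 335), 194 and 563 between the WT states (343 and 275) and 387 and 134 in the interaction (215 and 262). From the first or second technical column alone, *PLAU* had -0.90 or -0.64 in DIFF and *MMP1* -4.30 or -5.36 between the WT states, and *MMP1* had 1.06 in the interaction from the first. Leaving out 1 sample gave *AREG* 3.41 to 4.55 in DIFF and 3.94 to 5.08 in the interaction, the highest without WT DIFF replicate 1. With the replicate number as a block, 326 and 629 genes were called between genotypes in PROL and in DIFF (349 and 643 without). With the animal as a block, 545 and 640 were called between the states of DMD and WT SCs, and 492 in the interaction (536, 618 and 477 without). Of the named genes, these blocks changed the *PLAT* call in PROL and no other. Between DMD and WT animals with the same number, no source used here gives a link, and their deviations correlated by -0.0274 to 0.0993. Depth limits *MET* and *MMP1* in DIFF, where libraries held 2 to 36 counts.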

Other observations

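Genes beside the 4 on their chromosomes were looked at after the values above were known, as the 4 RefSeq genes of Sscrofa11.1 on either side of each. Of these 32 genes 13 were counted and 9 were tested in at least 1 comparison. *ST7* near *MET* and *CAMK2G* and *AP3M1* near *PLAU* were tested and called in no comparison. Of all genes tested, 8.36 to 17.9% were called in a given direction, depending on the comparison. *TES*, which encodes a protein of focal adhesions and lies near *MET*, had its course in direction. It was higher in DMD than in WT SCs in PROL (0.99, SE 0.16, edgeR adjusted *p* = 4.1e-04) and in DIFF (1.18, SE 0.17, adjusted *p* = 1.8e-05), and fell from PROL to DIFF, with -1.15 in DMD and -1.35 in WT SCs, all on the log2 scale (adjusted *p* = 3.0e-05 and 1.3e-05). Of the genes between or beside them, *CAPZA2*, an actin capping gene, was called in no comparison, and *CAV1*, which encodes caveolin-1, was called between the WT states only (-0.69, SE 0.11, edgeR adjusted *p* = 1.1e-04). *CAV2*, which encodes caveolin-2, was higher in DMD than in WT SCs in DIFF (1.16, SE 0.11, edgeR adjusted *p* = 2.4e-07) but not called in PROL (-0.56, SE 0.18, adjusted *p* = 0.0369). It fell from PROL to DIFF in WT SCs (-1.41, SE 0.15, edgeR adjusted *p* = 2.0e-06), and in DMD SCs the value was 0.31 (SE 0.13, adjusted *p* = 0.0730).

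*VCL*, the gene of vinculin beside *PLAU*, was higher in DMD than in WT SCs in DIFF by 1.13 on the log2 scale (SE 0.12, edgeR adjusted *p* = 1.1e-06), where *PLAU* was lower, and was 0.03 (SE 0.12) in PROL. From PROL to DIFF it rose in DMD SCs, as the *PLAU* level did, by 1.55 (SE 0.15, edgeR adjusted *p* = 1.0e-05), and had 0.44 (SE 0.09, not called) in WT SCs. *CXCL2*, a chemokine gene near *AREG*, was lower in DMD than in WT SCs in PROL (-2.91, SE 0.49, edgeR adjusted *p* = 5.0e-04) and in WT SCs fell from PROL to DIFF (-2.18, SE 0.52, adjusted *p* = 0.00467). Values of these neighbours under the alternative settings are not given here.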
